A study of Mus musculus with 18 samples.

Results

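The Nogo receptor gene Rtn4r and 5 partner genes were examined in the left ventricle (LV), as 6 of the 55450 genes of the count table. The genes are the ligand Rtn4, the receptor Rtn4r with its paralogs Rtn4rl1 and Rtn4rl2, and the co-receptors Lingo1 and Ngfr. Rtn4r was chosen by its own values in an earlier analysis of these data, namely its low level in Gαq mice fed ERTU and its high level in 2 wild type (WT) libraries. Its levels and fold changes are therefore given as a description with no test. The 5 partners were listed as the ligand, paralogs and co-receptors of Rtn4r, with earlier results of these data known, and were tested. All 6 genes passed the filter on low counts, which left 16270 genes.

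The mice were male FVB/N mice, either overexpressing the G protein subunit Gαq in the heart alone or WT littermates. From 4 to 20 weeks of age they ate control diet (CD) or chow holding 0.5 mg of the SGLT2 inhibitor ertugliflozin (ERTU) per g, a treatment of 16 weeks. Poly(A)-selected RNA was sequenced from 18 libraries, 4 in each of the groups WT CD and Gαq ERTU and 5 in each of WT ERTU and Gαq CD. The promoter that drives the transgene is not given in the sources used here. Libraries are named by their group and the number in the count table, which runs over the whole series.

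Nogo, the product of Rtn4, is a reticulon that shapes the tubules of the endoplasmic reticulum (ER), and its A form is best known as an inhibitor of axon growth in myelin. On neurons it binds the Nogo receptor NgR1, a GPI-anchored protein encoded by Rtn4r that has no cytoplasmic part and signals through LINGO-1 and the neurotrophin receptor p75NTR to RhoA and its kinase ROCK. The shorter B form is found in many tissues, the vessel wall and heart among them.

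Total counts ran from 15383566 to 20908363 per library. Levels are read counts per 1000000 with TMM scaling (CPM), and log2 fold changes ± SE come from edgeR. Gnaq, which the transgene encodes, was at 45.5 to 230.0 CPM in the 9 WT libraries and at 1640 to 11700 CPM in the 9 Gαq libraries. The 10 cardiomyocyte markers were all detected, with summed levels from 73400 to 112000 CPM. Of the 12 neuron markers, Chat had no count, 7 stayed under 1 CPM in every library, and the sum was at most 50.1 CPM.

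Per kilobase of exon, the mean level over the 18 libraries was 21.7 ± 3.81 CPM (SD) for Rtn4. It was 1.93 ± 2.83 CPM for Rtn4r, 1.75 ± 0.351 CPM for Rtn4rl1 and 1.21 ± 0.373 CPM for Rtn4rl2. The co-receptors were lowest, with 0.274 ± 0.117 CPM for Ngfr and 0.192 ± 0.125 CPM for Lingo1. Neighbours in this order were apart by more than the larger SD, except Rtn4r and Rtn4rl1, and Ngfr and Lingo1. Raw counts were 2011 to 4019 for Rtn4 but 7 to 322 for Rtn4r, 3 to 28 for Ngfr and 1 to 42 for Lingo1, so values of the last 3 carry a large counting error.

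Promoter windows of RefSeq (build GRCm38.p6, 250 bases before to 50 after each start) were found for 5 of the 6 genes. Rtn4rl1 was not matched. The bases before the start are shown for Rtn4r, whose level varied most, for Pdk4, with which it is compared, and for starts 1 and 3 of Rtn4, the partner that changed. Capitals mark CpG dinucleotides.
Rtn4r, chr16:18127392-18127641, plus strand: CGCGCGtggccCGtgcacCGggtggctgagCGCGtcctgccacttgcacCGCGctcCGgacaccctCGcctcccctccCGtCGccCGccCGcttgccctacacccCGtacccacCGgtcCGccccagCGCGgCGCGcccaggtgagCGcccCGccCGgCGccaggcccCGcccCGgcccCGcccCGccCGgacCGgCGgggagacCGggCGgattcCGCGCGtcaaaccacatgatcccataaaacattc
Pdk4, chr6:5496279-5496528, minus strand: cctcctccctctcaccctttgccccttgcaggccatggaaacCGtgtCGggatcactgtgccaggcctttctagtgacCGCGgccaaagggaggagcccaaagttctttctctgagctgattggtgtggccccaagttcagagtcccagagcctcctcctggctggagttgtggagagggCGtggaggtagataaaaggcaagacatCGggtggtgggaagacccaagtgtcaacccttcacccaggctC
Rtn4 start 1, chr11:29692648-29692897, plus strand: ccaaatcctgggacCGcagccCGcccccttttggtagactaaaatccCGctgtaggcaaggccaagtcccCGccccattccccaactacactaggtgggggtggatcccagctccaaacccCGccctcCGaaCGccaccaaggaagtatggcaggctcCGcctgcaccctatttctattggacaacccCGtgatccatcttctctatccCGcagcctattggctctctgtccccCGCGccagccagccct
Rtn4 start 3, chr11:29718313-29718562, plus strand: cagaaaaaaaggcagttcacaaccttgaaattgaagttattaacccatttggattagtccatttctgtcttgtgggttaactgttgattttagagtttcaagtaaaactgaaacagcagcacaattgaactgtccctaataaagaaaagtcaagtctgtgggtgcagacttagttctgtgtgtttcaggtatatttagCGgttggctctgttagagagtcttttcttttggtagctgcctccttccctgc
The whole Rtn4r window held 78.0% G or C and 47 CpG, an observed over expected ratio of 1.11, higher than in 98.2% of the 32851 windows. The median window had 52.7% G or C and a ratio of 0.38. Pdk4 had 60.7% and 12 CpG. The windows of Rtn4rl2, Ngfr and both starts of Lingo1 had 74.0%, 71.7%, 71.3% and 72.7% G or C. The 3 Rtn4 starts had 62.3%, 75.3% and 39.7%, and start 3 held 1 CpG against 15 at start 1. Counts were made per gene, so transcripts from these starts, and the A, B and C forms of Nogo, were not separated.

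The letters GTAAACA (a FOXO site), CACGTG (an E-box) and the DR1 element (2 copies of AGGTCA with 1 base between them) were searched on both strands. None was present in the windows of the members or of Pdk4. Among all windows, GTAAACA was in 3.65%, CACGTG in 7.15% and the DR1 element in 0.04%.

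Rtn4, the ligand (ENSMUSG00000020458, chr11:29692947-29744331, plus strand), was higher in Gαq hearts on either diet. In WT CD it was 116, 120, 120 and 155 CPM, and in WT ERTU 131, 121, 120, 145 and 131 CPM. In Gαq CD it was 173, 194, 173, 182 and 162 CPM, and in Gαq ERTU 171, 185, 164 and 172 CPM. Every Gαq library lay above every WT library, and the nearest pair were WT CD library 5 at 155 CPM and Gαq CD library 10 at 162 CPM. By genotype, with diet in the model, Rtn4 rose by 0.45 ± 0.064 on the log2 scale (1.36-fold, edgeR adjusted p = 3.75e-05). It was the only partner called of 5, where 19.6% of all genes were called. On CD the rise was 0.47 ± 0.094 (edgeR adjusted p = 0.00305), and on ERTU it was 0.42 ± 0.093 (edgeR adjusted p = 0.00661). Of all genes, 8.1% were called on CD and 8.17% on ERTU. Groups that did not overlap were seen for 1 of the 5 partners in each comparison, again Rtn4, and for 9.29% of all genes on CD and 10.9% on ERTU.

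Rtn4 was called in each of the 24 alternatives by genotype and in each of the 25 on CD and on ERTU, with log2 fold changes from 0.38 to 0.58. No difference between diets was detectable for Rtn4. The log2 difference, ERTU minus CD, was 0.02 ± 0.093 within WT and -0.03 ± 0.093 within Gαq, and the interaction of -0.05 ± 0.13 was not called (edgeR adjusted p = 1.0). Eml6 overlaps Rtn4 on the opposite strand, with at most 301 counts in a library, and the authors counted same-strand pairs.

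In bulk tissue, more RNA per cell cannot be told apart from more cells that hold it. The summed level of 8 fibroblast markers was 1540 to 3150 CPM in WT and 2900 to 4390 CPM in Gαq, and 6 of the 8 were called higher by genotype. The library with the most Rtn4 also had the highest fibroblast sum in WT CD (library 5, 3150 CPM) and WT ERTU (library 14, 2880 CPM). This was not so in Gαq CD, where library 7 had the most Rtn4 and library 8 the highest sum (3160 against 4390 CPM), or in Gαq ERTU, where these were libraries 17 and 20 (3220 against 3570 CPM). The part of these cells in the rise of Rtn4 was not tested.

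**Figure D1:**
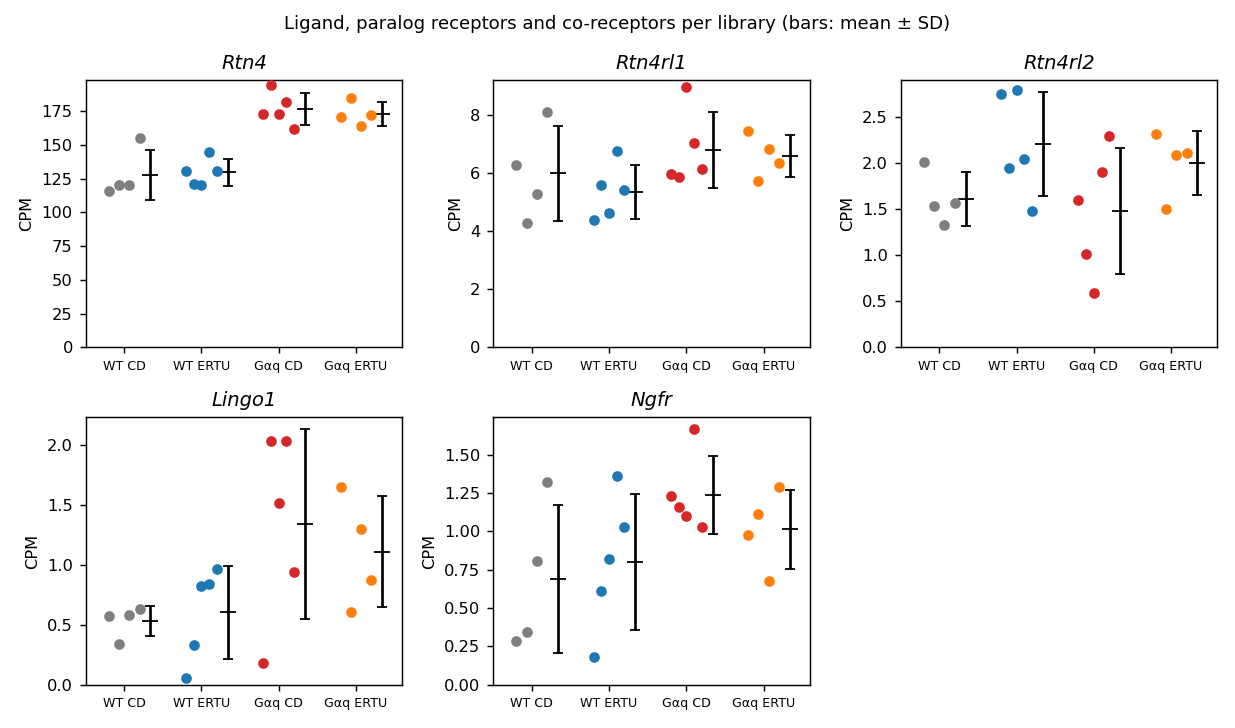
Level in CPM (linear axes from 0) of Rtn4, Rtn4rl1, Rtn4rl2, Lingo1 and Ngfr in each library, as points in number order within the 4 groups, with the group mean ± SD as a bar. Rtn4 is at or above 162 CPM in each Gαq library and at or below 155 CPM in each WT library, while the groups overlap for the other 4 genes.

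Rtn4r, the receptor (ENSMUSG00000043811, chr16:18127642-18152408, plus strand), was low in every group and lowest in Gαq ERTU. In WT CD libraries 1, 2, 4 and 5 it was 3.58, 1.6, 15.8 and 3.45 CPM. In WT ERTU libraries 11 to 15 it was 1.74, 4.96, 1.81, 1.89 and 20.7 CPM. A single library in each WT group, 4 and 15, was far above the rest. In Gαq CD libraries 6 to 10 it was 1.11, 2.32, 2.79, 2.5 and 0.375 CPM, and in Gαq ERTU libraries 16, 17, 18 and 20 it was 0.853, 1.16, 0.452 and 0.322 CPM. The Gαq ERTU libraries all lay below the WT ERTU libraries, a split that helped to choose the gene. Gαq CD overlapped WT CD through library 2, and Gαq ERTU overlapped Gαq CD.

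Group means were 6.11 ± 6.53 CPM (SD, n = 4) in WT CD, 6.23 ± 8.23 CPM (n = 5) in WT ERTU, 1.82 ± 1.03 CPM (n = 5) in Gαq CD and 0.698 ± 0.384 CPM (n = 4) in Gαq ERTU. Medians were closer together, at 3.51, 1.89, 2.32 and 0.652 CPM. By median Gαq CD stood above WT ERTU, the reverse of the order by mean. In the order by mean, neighbours differed by less than the larger SD, apart from Gαq CD and Gαq ERTU, which differed by slightly more.

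The log2 fold change of Rtn4r was -2.35 ± 0.58 by genotype. Gαq hearts differed from WT by -1.74 ± 0.75 under CD and by -3.16 ± 0.88 under ERTU. The ERTU minus CD difference was 0.01 ± 0.71 within WT and -1.4 ± 0.91 within Gαq, with an interaction of -1.41 ± 1.16 and a diet term of -0.52 ± 0.57. These comparisons share groups and are not independent of each other. Without WT CD library 4 and WT ERTU library 15 together, a choice made after the data were seen, the value by genotype was -1.24, on CD -0.65 and on ERTU -1.9. The diet difference within WT turned to 1.11 without library 4 alone and to -1.23 without library 15 alone. On the deposited variance-stabilized scale, which compresses low counts, the genotype difference was -1.08 and that on ERTU -1.29.

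**Figure D2:**
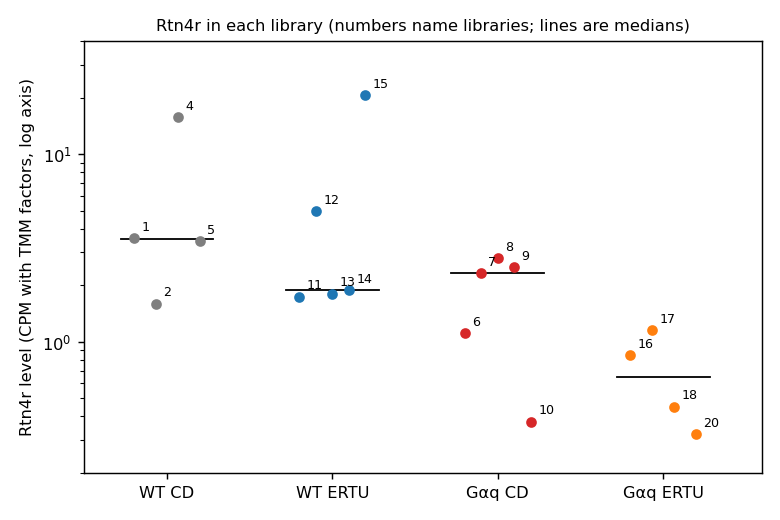
Rtn4r level in CPM (log axis) in each of the 18 libraries by group, with library numbers beside the points and group medians as lines. WT CD library 4 (15.8 CPM) and WT ERTU library 15 (20.7 CPM) stand above all others, and the Gαq ERTU libraries lie between 0.322 and 1.16 CPM.

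No difference passed the test for either paralog of the receptor. Rtn4rl1 (ENSMUSG00000045287, chr11:75193783-75267769, plus strand), which encodes NgR3, a receptor for chondroitin sulfate chains, was 6.29, 4.27, 5.27 and 8.1 CPM in WT CD and 4.38, 5.57, 4.61, 6.76 and 5.41 CPM in WT ERTU. It was 5.96, 5.86, 8.97, 7.03 and 6.14 CPM in Gαq CD and 7.43, 5.71, 6.84 and 6.34 CPM in Gαq ERTU. The groups overlapped throughout. The log2 difference by genotype was 0.24 ± 0.13 (edgeR adjusted p = 0.196).

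Rtn4rl2 (ENSMUSG00000050896, chr2:84871924-84886710, minus strand), which encodes NgR2, a receptor for the myelin protein MAG, was 2.02, 1.54, 1.33 and 1.57 CPM in WT CD and 2.76, 1.95, 2.8, 2.05 and 1.48 CPM in WT ERTU. In Gαq CD it was 1.6, 1.02, 0.595, 1.91 and 2.3 CPM, and in Gαq ERTU 2.32, 1.5, 2.09 and 2.11 CPM. By diet the log2 difference was 0.45 ± 0.21, with ERTU above CD, and did not pass the adjustment over all genes (edgeR adjusted p = 0.64). It was 0.45 ± 0.3 in WT and 0.44 ± 0.3 in Gαq.

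Lingo1, a co-receptor with leucine-rich repeats (ENSMUSG00000049556, chr9:56618475-56796468, minus strand), was 0.577, 0.342, 0.579 and 0.628 CPM in WT CD and 0.06, 0.334, 0.823, 0.839 and 0.966 CPM in WT ERTU. In Gαq CD it was 0.184, 2.03, 1.51, 2.03 and 0.937 CPM, and in Gαq ERTU 1.65, 0.61, 1.3 and 0.873 CPM. Most Gαq libraries were above most WT libraries, but Gαq CD library 6, with 3 counts, was below all WT CD libraries. By genotype the log2 difference was 1.09 ± 0.38 (2.13-fold) and missed the threshold narrowly (edgeR adjusted p = 0.0506). The call was made in 7 of 23 alternatives, with adjusted p from 0.0132 to 0.0998. On CD the difference was 1.33 ± 0.56 (edgeR adjusted p = 0.165), and it was called once in 24 alternatives, at 1.6 without Gαq CD library 6 (edgeR adjusted p = 0.0436).

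Ngfr, which encodes p75NTR (ENSMUSG00000000120, chr11:95568818-95587735, minus strand), was 0.288, 0.342, 0.81 and 1.32 CPM in WT CD and 0.18, 0.613, 0.823, 1.36 and 1.03 CPM in WT ERTU. In Gαq CD it was 1.23, 1.16, 1.1, 1.67 and 1.03 CPM, and in Gαq ERTU 0.975, 1.11, 0.678 and 1.29 CPM. WT libraries spread widely, from 3 to 26 counts, and reached into the Gαq range. The log2 difference by genotype was 0.58 ± 0.3 (edgeR adjusted p = 0.196). Summed markers of Schwann cells, which are known to express Ngfr, were 19.9 to 41.9 CPM in WT and 14.7 to 44.3 CPM in Gαq.

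In edgeR, 0 of the 5 partners were called by diet, by diet within either genotype or by the interaction, and DESeq2 and voom also called 0. At an unadjusted p under 0.05 in edgeR there was 1 partner by diet (Rtn4rl2) and 0 in the other 3. Of all genes, 0.0% were called by diet, 0.0% by diet within WT, 0.00615% by diet within Gαq and 0.0% by the interaction.

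**Figure D3:**
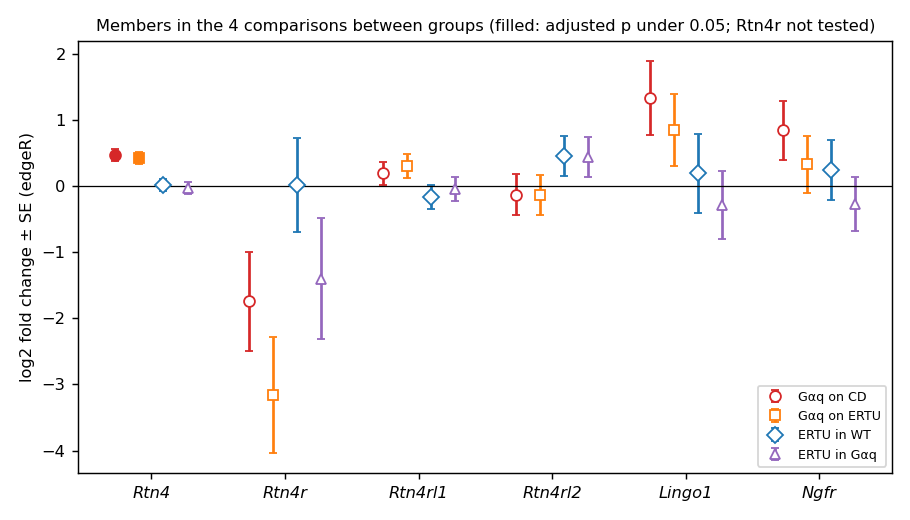
Log2 fold change ± SE from edgeR for the 6 genes, Gαq against WT under each diet and ERTU against CD within each genotype, with filled symbols for an adjusted p under 0.05. The 2 filled symbols belong to Rtn4 (0.47 and 0.42), and Rtn4r, for which no test is reported, has the largest falls and the widest SEs.

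Against the median of the other libraries of its group, Rtn4r was higher by 2.16 in library 4 and by 3.41 in library 15 (log2 CPM, prior count of 2). Rtn4 stood at 120 and 131 CPM there, inside the range of its group, and so did Rtn4rl1 at 5.27 and 5.41 CPM. Rtn4rl2 was the lowest of its group in both, at 1.33 and 1.48 CPM. Lingo1 in library 15 was the highest of its group, at 0.966 CPM against 0.06 to 0.839 CPM, while in library 4 it was at the median of the others. In raw counts library 15 did not stand apart, with 15 beside 15 and 16 in libraries 13 and 14. Ngfr was above the median of the others by 1.03 in library 4 and by 0.47 in library 15, inside the range of its group in both.

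Of the 26 genes of the table with a body within 250 kb, 11 passed the filter: Tssk1, Ess2, AA914427, Slc25a1, Dgcr6, Prodh, Zdhhc8, Ranbp1, Trmt2a, Dgcr8 and Tango2. Their deviations from the median of the other libraries ran from -0.86 to 0.24 in library 4 and from -1.32 to 0.22 in library 15. By genotype 2 of the 11 were called, Prodh lower (-0.55, edgeR adjusted p = 0.00593) and Dgcr8 higher (0.25, edgeR adjusted p = 0.0461), a share near the 19.6% of all genes. Prodh encodes proline dehydrogenase, and Dgcr8 is the RNA-binding partner of Drosha in miRNA processing.

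Pdk4 encodes a mitochondrial kinase that shuts down pyruvate dehydrogenase and is raised by fasting. It was 3980, 3500, 166 and 3500 CPM in WT CD, and 6870, 4200, 3190, 3090 and 1680 CPM in WT ERTU. In Gαq CD it was 1870, 150, 261, 105 and 1820 CPM, and in Gαq ERTU 2040, 1310, 1510 and 2470 CPM. The libraries fell into 2 sets, 4 at or below 261 CPM (WT CD library 4 and Gαq CD libraries 7, 8 and 9) and 14 at or above 1310 CPM, with a gap of 2.32 in log2 CPM against 0.71 for the next widest. Over all 18 libraries, Pearson's r between log2 CPM of Rtn4r and Pdk4 was -0.25, and -0.74 with group means removed. Since the sets are apart, the correlations given below are limited to the 14 libraries of the upper set. There the sign of r with group means kept is the opposite.

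Within groups, low Pdk4 mostly went with high Rtn4r, in part through libraries 4 and 15, whose Rtn4r levels helped to choose the gene. The library with the least Pdk4 had the most Rtn4r in WT CD (library 4), WT ERTU (library 15) and Gαq ERTU (library 17). In Gαq CD the 3 libraries of the low set had the 3 highest Rtn4r levels, 2.32 to 2.79 CPM against 1.11 and 0.375 CPM. Counted over pairs of libraries of a group, the one with less Pdk4 had more Rtn4r in 4 of 6 pairs in WT CD, 8 of 10 in WT ERTU, 7 of 10 in Gαq CD and 5 of 6 in Gαq ERTU. Pairs share libraries, so these counts are a description. In WT CD, library 1 had the most of both genes among libraries 1, 2 and 5. Within the low set of Gαq CD, library 8 had the most of both.

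Between groups the order was different. Among the 14 libraries of the upper set, Pearson's r between log2 CPM of Rtn4r and Pdk4 was 0.27 and Spearman's rho 0.45, and the Gαq libraries lay low in both. After the group means were removed, r was -0.63 and rho -0.3. Without the 2 libraries farthest from the median of Pdk4, r was 0.31 (n = 12, group means kept). Leaving out WT ERTU library 15 raised r to 0.65. Both values of a point share the scaling of their library, and r depends on library 15.

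**Figure D4:**
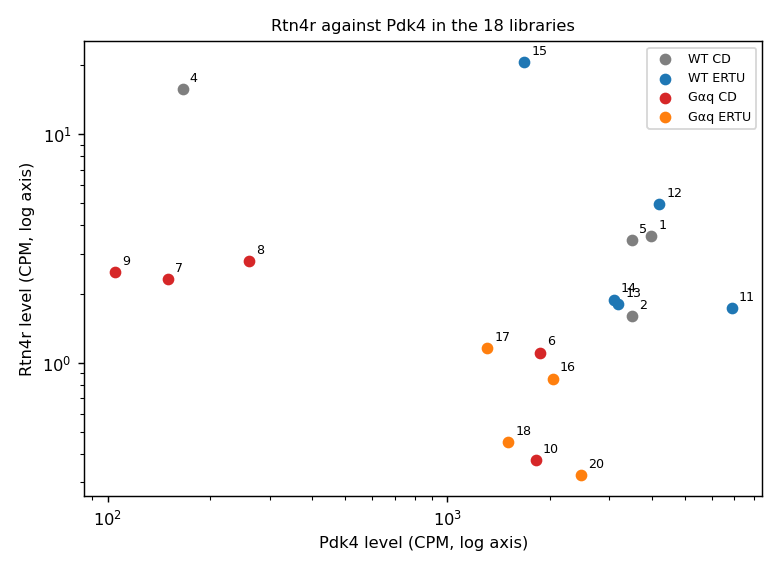
Rtn4r level against Pdk4 level, both in CPM on log axes, in the 18 libraries, coloured by group and numbered. A gap between 261 and 1310 CPM of Pdk4 separates 4 libraries from 14. Most pairs of libraries within a group run from upper left to lower right. In WT CD this is mainly through library 4, and in Gαq CD mainly across the gap.

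Other genes moved in the same libraries. Of 20 tested genes of a fasting list (21 listed, Pdk4 included), all were below the median of the other libraries in WT CD library 4, with a median deviation of -1.25 and the largest fall in Angptl4 (-5.19), an inhibitor of lipoprotein lipase. In WT ERTU library 15, 15 of the 20 were below, with a median of -0.59 and the largest fall in Acot1 (-2.78), an acyl-CoA thioesterase. The summed fasting list was 1820 CPM in WT CD library 4. It was also low in Gαq CD libraries 7, 8 and 9 (1410, 2320 and 1770 CPM), against 5460 and 5650 CPM in libraries 6 and 10. Rtn4r was only 2.32 to 2.79 CPM in libraries 7, 8 and 9. Of 12 immediate early genes, 11 were above in library 4 (median 1.26, Fosb highest at 2.37) and 6 in library 15 (median -0.02). Of 15 clock genes, 3 were above in library 4 and 8 in library 15, where Arntl, a core activator of the clock, was lowest (-2.57). What part the state these lists mark has in the level of Rtn4r was not tested.

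The genes whose log2 CPM followed Rtn4r most closely over the 18 libraries, of 13097 with a mean log2 CPM of at least 1, included Egln3 (r = 0.92), BC003965, Jph2 and Abcb9 (r = 0.89 for each). Egln3 encodes a prolyl hydroxylase that targets HIF subunits and was lowest at 42.8 CPM, at 178 CPM in WT CD library 4 and highest in WT ERTU library 15. Jph2, which encodes the junctophilin that holds the sarcoplasmic reticulum to the T-tubule, ran from 303 to 892 CPM, with 749 and 892 CPM in those libraries. The most opposite were B930095G15Rik (r = -0.93), Tmbim1 (-0.89), and Tmem71, Lztr1 and 4933431K14Rik (-0.88 for each). Without libraries 4 and 15, r was 0.8 to 0.87 for these 4 genes and -0.88 to -0.77 for the 5 most opposite. These genes were picked as the extremes of a long list and carry no test. Among the partners compared, r was -0.5 for Rtn4 and -0.15 for Rtn4rl1, and both turned positive, at 0.13 and 0.2, with group means removed.

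Of 70 other genes tied to the Nogo pathway, 61 could be tested, and 14 were called by genotype (10 higher, 4 lower). This was 23.0% of those tested beside 19.6% of all genes, with a median log2 fold change of 0.03 for the list and 0.00377 for all genes. On CD 7 were called (5 higher, 2 lower) and on ERTU 6 (3 higher, 3 lower). These were 11.5% and 9.84%, beside 8.1% and 8.17% of all genes. By diet, by diet within WT, by diet within Gαq and by the interaction, edgeR, DESeq2 and voom each called 0, with 4, 0, 7 and 0 at an unadjusted p under 0.05 in edgeR.

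Among other ligands of the receptor, Mag and Omg, the myelin ligands, stayed at or below 0.596 and 0.0615 CPM and were not tested. Lgi1, a secreted protein with leucine-rich repeats that binds ADAM22 and has been described as a ligand of NgR1, was the 1 called of 2 tested. It was 6.09 ± 0.824 CPM (SD, n = 4) in WT CD, 4.04 ± 1.75 CPM (n = 5) in WT ERTU, 2.31 ± 0.946 CPM (n = 5) in Gαq CD and 1.58 ± 0.826 CPM (n = 4) in Gαq ERTU. It fell by 1.38 ± 0.25 on the log2 scale by genotype (edgeR adjusted p = 0.000359) and was called on both diets. On ERTU the call was lost in 6 of 25 alternatives, without WT ERTU library 12 or 15, Gαq ERTU library 16 or 20, both high Rtn4r libraries, or with only the groups compared (adjusted p from 0.0565 to 0.103).

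Of 7 tested genes of other receptors and LINGO paralogs, 3 were called by genotype. S1pr2, a sphingosine 1-phosphate receptor that also binds Nogo-A, rose by 0.65 ± 0.14 (edgeR adjusted p = 0.00172), from 9.84 ± 1.73 CPM (SD, n = 4) in WT CD to 16.5 ± 4.18 CPM (n = 5) in Gαq CD. Ptprf, a receptor phosphatase of the LAR family, rose by 0.4 ± 0.14 (edgeR adjusted p = 0.0493), a call kept in only 11 of 24 alternatives. Lingo3, a paralog of Lingo1, fell by 1.11 ± 0.24 (edgeR adjusted p = 0.00197), a call kept in 24 of 24 alternatives. On CD its log2 difference of -1.06 ± 0.34 was not called (edgeR adjusted p = 0.061) and was -0.52 without WT CD library 4. On ERTU Lingo3 was called, also in 15 of 25 alternatives. Lingo3 was also high in the libraries with the most Rtn4r, at 8.1 CPM in WT CD library 4 against 2.64 to 3.19 CPM in the rest of its group.

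In the neurotrophin arm, Sorcs2, a co-receptor of p75NTR for proneurotrophins, rose by 0.96 ± 0.13 (1.95-fold, edgeR adjusted p = 2.17e-05), from 3.09 ± 0.679 CPM (SD, n = 4) in WT CD to 6.79 ± 0.821 CPM (n = 5) in Gαq CD. It was called on CD, on ERTU and in every alternative of the 3 comparisons.

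Among RhoA and the genes around it in this pathway, 4 of 19 were called by genotype, all higher and all by small amounts. Rhoa, the GTPase at the end of the receptor's pathway, rose by 0.2 ± 0.05 (edgeR adjusted p = 0.0133), Rhoc by 0.28 ± 0.08 (edgeR adjusted p = 0.0103) and Limk2, a kinase that inactivates cofilin, by 0.24 ± 0.07 (edgeR adjusted p = 0.0127). Arhgdib, a GDP dissociation inhibitor of blood cells, rose by 0.3 ± 0.1 (edgeR adjusted p = 0.032), a call kept in 16 of 24 alternatives. On CD Rhoa was called, also in 21 of 25 alternatives (adjusted p up to 0.0833), and Rhoc, also in 18 of 25 (up to 0.16). On ERTU the count was 0 of the 19 by edgeR, DESeq2 and voom, with 1 at an unadjusted p under 0.05 in edgeR. The interaction called 0 of the 19 by each tool, with 0 at an unadjusted p under 0.05, so the 2 diets were not shown to differ.

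Of 5 tested genes of the proteases that shed NgR1 or p75NTR, 0 were called by genotype in edgeR, DESeq2 and voom, with 1 at an unadjusted p under 0.05 in edgeR. Of 6 of serine palmitoyltransferase, an enzyme that Nogo-B restrains, 1 was called, Ormdl3, another of its inhibitors, which rose by 0.27 ± 0.06 (edgeR adjusted p = 0.002). Of 12 other genes that shape the ER, 3 were called. Ckap4, which encodes a protein of ER sheets, rose by 1.05 ± 0.1 (2.07-fold, edgeR adjusted p = 2.94e-07), from 26.1 ± 3.44 CPM (SD, n = 4) in WT CD to 61.5 ± 12.1 CPM (n = 5) in Gαq CD. Atl2, a GTPase that fuses ER tubules, fell by 0.4 ± 0.07 (edgeR adjusted p = 0.000215), while its call on CD held in 18 of 25 alternatives. Reep6, which bends ER membrane, fell by 0.43 ± 0.14 (edgeR adjusted p = 0.0327), a call kept in 14 of 24.

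**Figure D5:**
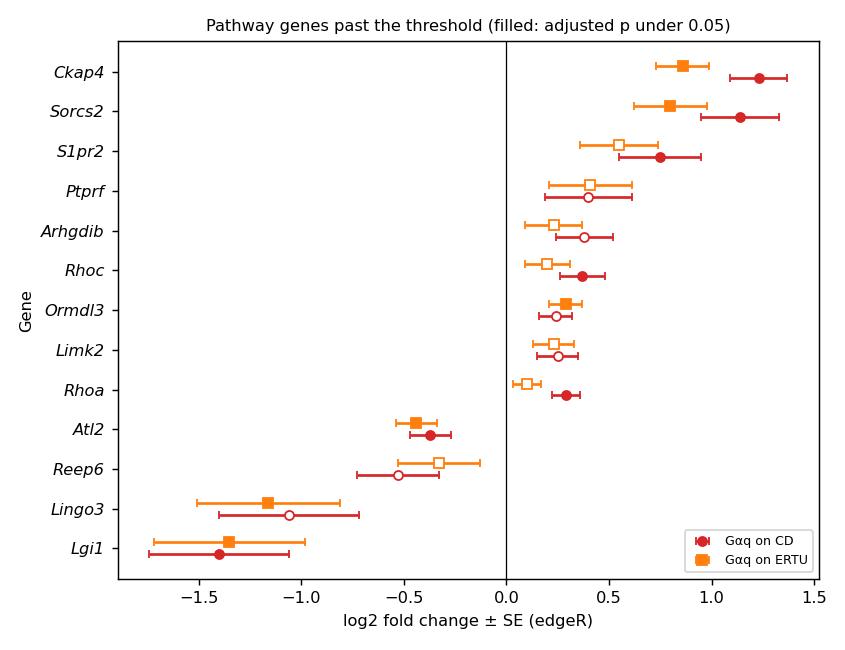
Log2 fold change ± SE from edgeR, Gαq against WT under each diet, of 13 pathway genes called by genotype, with filled symbols for an adjusted p under 0.05. Ckap4 and Sorcs2 rise and Lgi1 and Atl2 fall with filled symbols on both diets.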

How the data were processed

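RNA was extracted from frozen LV and sequenced as poly(A)-selected paired-end libraries. The deposited counts are raw read pairs per Ensembl gene, which the authors made with STAR 2.6.0c on mm10 and featureCounts (Subread 1.6.2), keeping uniquely aligned proper pairs of nuclear-encoded genes. A further table by the authors, variance-stabilized with DESeq2 and so on a log2-like scale, served only as an alternative. Of 55450 gene IDs, 55190 matched GENCODE M21 (GRCm38), which gave symbols, positions and exon lengths.

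The filterByExpr function kept 16270 genes, and those removed held 0.0906% of counts. Quasi-likelihood F tests of edgeR 4.0.16 (R 4.3.3, TMM scaling) used all 18 libraries. Genotype and diet came from a model with both factors, and the other 5 comparisons from a model with 1 mean per group. The SE is the absolute log2 fold change over the square root of F. Benjamini-Hochberg adjustment ran over the 16270 genes, with a threshold of 0.05. Rtn4r was fitted and adjusted along with the other genes, but its p is not reported. The edgeR steps were tested on simulated data for Gαq against WT on CD only, with no outlying library, so the other comparisons were not covered. The alternatives were no filter, a mean CPM of at least 1, scaling by median of ratios, DESeq2 1.42.0, limma 3.58.1 voom with quality weights, only the groups compared, and each library left out in turn. Leaving out WT CD library 4 and WT ERTU library 15 together was chosen after seeing the data. So was describing the correlation of Rtn4r and Pdk4 mainly over 14 libraries, where 18 were planned.

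Named genes are the members, Pdk4, pathway genes past the threshold in any comparison, the 5 genes most like and the 5 most opposite to Rtn4r, its neighbours within 250 kb, and the extremes of the fasting, clock and immediate early lists in the libraries high in Rtn4r. The members and lists were chosen with earlier results of these data known. The labels give separate samples in each group, and the study counts hearts per group. Promoter sequences are from RefSeq. A few genes that the rule names are not reported here.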

Additional observations from a re-analysis of the deposited data

Results flagged for a closer look

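Over the members, Pdk4 and 13 called pathway genes, 80 groups of values were examined for a library far from the rest of its group, and 8 were found. Chance picks out about 1 group in 20, but 2 of the 8 are the Rtn4r values by which the gene was chosen, so the count is not set against chance. Of the 8, 3 were in WT CD library 4 and 1 in WT ERTU library 15. Rtn4r was 15.8 CPM in WT CD library 4 against 1.6 to 3.58 CPM in the others, and 20.7 CPM in WT ERTU library 15 against 1.74 to 4.96 CPM. Pdk4 stood at 166 CPM in WT CD library 4, far under the 3500 to 3980 CPM of its group. Lingo3 in the same library was 8.1 CPM against 2.64 to 3.19 CPM. Rtn4 in WT CD library 5 was 155 CPM against 116 to 120 CPM, the value closest to the Gαq range. Ckap4 in Gαq CD library 9 was 82.7 CPM against 53.1 to 59.4 CPM. Smaller departures were those of Ormdl3 in WT ERTU library 11, 70.9 CPM against 62.8 to 64.9 CPM, and of Reep6 in WT ERTU library 13, 6.91 CPM against 4.56 to 5.22 CPM.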

How the results depend on the processing

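No paired analysis was possible because the library numbers run over the whole series and link no library of one group to a library of another. Among the partners, 2 in place of 1 were called by genotype with no filter on low counts and with DESeq2, the second being Lingo1, and from 1 to 2 when a library was left out (2 without Gαq CD library 6, WT ERTU library 13, 14 or 15, or Gαq ERTU library 17). On CD the range was also 1 to 2, with 2 without Gαq CD library 6. Pathway genes called on CD ranged from 3 to 9 when a library was left out, falling to 3 without WT CD library 1 and 4 without WT CD library 2 and rising to 9 without WT CD library 5. By genotype they ranged from 11 to 16. On ERTU the range was 3 to 6, with 3 without WT ERTU library 12 or 15 or Gαq ERTU library 16 or 20. The cause of these shifts was not tested. The mean of Rtn4r fell to 2.87 CPM in WT CD without library 4 and to 2.6 CPM in WT ERTU without library 15. Its fold change for Gαq on ERTU moved to -1.91 without WT ERTU library 15, where the interaction was -0.17. In the 14 libraries of the upper set, the correlation of Rtn4r and Pdk4 turned to -0.63 with group means removed. It ran from 0.17 to 0.65 over single libraries left out. Of the 10 genes named for likeness to Rtn4r, 3 were also named with Spearman's rho and 1 with group means removed. No call reversed its direction in the alternatives run. With 7 to 322 counts per library for Rtn4r, and fewer for Lingo1 and Ngfr, small differences were not detectable at this depth.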
